A study of Mus musculus with 4 samples.

Results

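The natural killer (NK) cells were 1 of 21 cell types that the authors named among cells sorted from liver and lung of mice, and they are described here by the genes listed as higher in them than in all other sorted cells. The members are the 197 genes listed for the cluster named NK, of 1679 genes listed for any cell type. The mice were wild-type BALB/c animals, 8 weeks old, injected intraperitoneally on each of 5 days with the control PBS or with 0.5 µg rIL-33, a recombinant form of the cytokine IL-33, and their livers and lungs were taken. The 4 groups, PBS liver, PBS lung, rIL-33 liver and rIL-33 lung, held 1 library each, so no group had a replicate. The sort aimed at group 2 innate lymphoid cells (ILC2s), innate lymphocytes known for type 2 cytokines such as IL-13. It kept cells positive for CD127, Thy1 and the IL-33 receptor ST2, and dropped cells carrying TCRb, CD3e, CD45R, TER119, CD11b, Ly6c or Ly6G. No NK receptor was used in this gate, and the cluster holds what passed through it, so the cells are not a sample of the NK cells of liver or lung. The tables used here pool the 4 libraries, so neither rIL-33 with PBS nor liver with lung could be compared.

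NK cells are innate lymphocytes that kill infected or transformed cells without prior sensitization. They release granules holding perforin, which opens the target's membrane, and granzymes, proteases that start cell death inside it. Whether a cell is killed depends on the balance between activating receptors such as NKp46 and NKG2D, which signal through adapter proteins, and inhibitory receptors that read MHC class I. Group 1 innate lymphoid cells (ILC1s), which are abundant in liver, share many of these receptors and make interferon-γ, and NK cells are commonly told from them by the transcription factor Eomes.

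Each listing gave 2 measurements, namely the share of the cluster's cells in which the gene had a value above 0 and the same share in all other sorted cells. The size of the cluster, solved from these shares across genes, was 3.66% ± 0.0156 (SE of the fit) of all cells, and NK cells ranked seventh of the 21 types by size. The ILC1 cluster held 4.84% of cells, the γδ T cell cluster named gdT_TypeI 11.7% and the ILC2 cluster 43.2%. Of all 1679 genes, 11.7% were listed for NK cells.

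The authors named the clusters by their markers, so NK markers on the NK list are a description of the name and no independent check of it. *Gzma*, which encodes granzyme A and was the marker given for the cluster, had a value above 0 in 89.6% of NK cells and in 39.0% of all other cells. This difference of 50.6 percentage points was the largest of all 197 genes. *Gzma* was also listed for the cluster named Prolifelation cell, with 90.4%, and for effector CD8 T cells, with 58.1%, so it did not mark NK cells alone. *Ncr1*, which encodes NKp46, had a value above 0 in 99.3% of NK cells and 62.5% of other cells, and *Eomes* in 86.7% and 64.0%. Of 16 T cell markers in the table, 1 was listed for NK cells, the costimulatory receptor gene *Cd28*, with 83.0% against 82.1% of other cells. The T cell receptor and CD3 genes were not among the 197, whereas 10 of the 16 were listed for effector CD8 T cells and 9 for gdT_TypeI cells. None of 10 B and plasma cell markers, 8 myeloid and basophil markers, 6 ILC3 markers or 5 markers of endothelium, epithelium and hepatocytes was listed for NK cells. Of 12 ILC2 markers, 1 was listed, *Klrg1*, an inhibitory receptor gene that NK cells also use, with 54.8% against 50.5%. Since only 11.7% of all 1679 genes were NK-listed, few or no such genes would be expected on marker lists this short. The low counts on these lists therefore do not by themselves show that other cell types were absent from the cluster. The gate's own genes *Thy1* and *Il1rl1*, the latter encoding ST2, were not on the NK list, while *Itgam*, which encodes the gated-out CD11b, was on it, with 53.2% of NK cells against 45.6% of the others.

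Shares outside the cluster were high for genes that few other cells are known to use, and they are not plain detection rates. *Cd3e* had a value above 0 in 83.5% of all cells of a sort that removed CD3e-positive cells, and *Cd8a* in 62.2%. The second table, made on ILC2s alone, gave other shares for the same genes. *Tyrobp*, which encodes the adapter DAP12, had a value above 0 in 3.53% of ILC2s there, but in 57.9% of the cells of types that did not list it in the cell type table, among which ILC2s were the largest type. For *Gzma* these shares were 11.2% and 35.3%. Over the 99 NK-listed genes that could be compared in this way, the share was higher in the cell type table for 97, with medians of 68.6% and 35.4%. For 116 genes listed for ILC2s themselves, the ILC2 share was higher in the cell type table by a median of 16.8 percentage points, within a range of −6.14 to 69.1 points. Values in the cell type table therefore serve below to compare cell types within it. For most genes the background share is given where NK cells are set against all other cells.

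**Figure D1:**
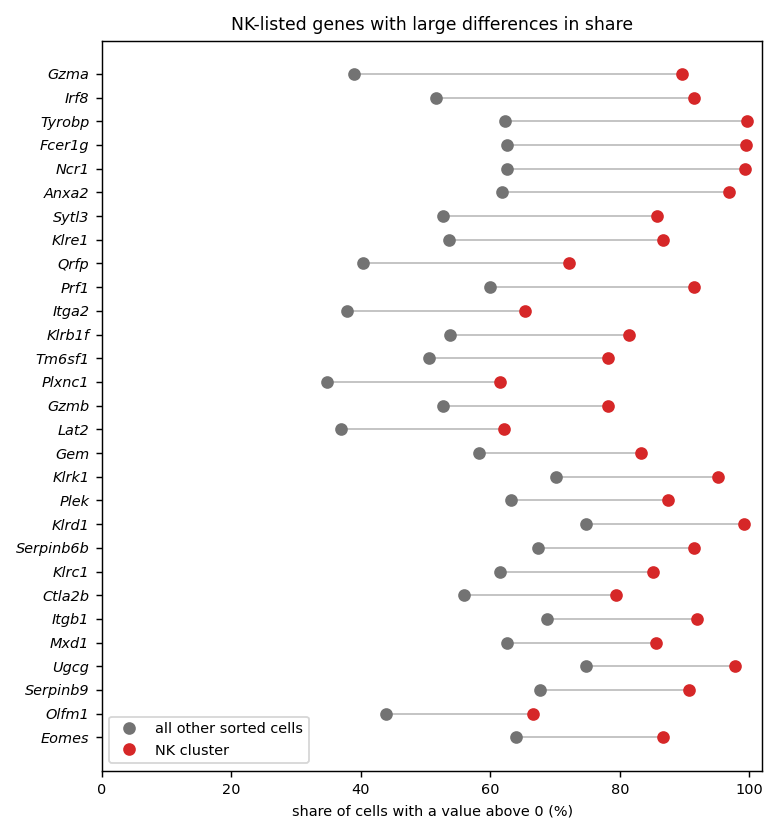
Share of cells with a value above 0 (horizontal axis, %) for NK-listed genes with large differences, in the NK cluster (red) and in all other sorted cells (grey), with no replicate and hence no error bars. *Gzma* leads, with 89.6% against 39.0%, and *Eomes* closes the plot, with 86.7% against 64.0%.

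Across the list, NK cells had the higher share for 175 of 197 genes and the lower share for 22. Over all 4422 listings of the 21 types, 83.6% had the higher share inside the cluster. A listing rested on the authors' comparison of average expression, so a gene could be listed with a lower share of cells. The median difference was 10.5 percentage points, against 18.4 over all listings. The difference reached 10 points for 105 genes, 20 points for 38 and 30 points for 11. The median share was 72.7% in NK cells and 60.6% in other cells, and 41 genes had a value above 0 in at least 90% of NK cells. Among the 11 genes with a difference of at least 30 points were *Gzma*, *Irf8*, *Tyrobp*, *Fcer1g*, *Ncr1*, *Anxa2*, *Sytl3*, *Klre1*, *Qrfp* and *Prf1*. The lowest differences belonged to *Ms4a4c*, with 40.1% of NK cells against 61.2% of other cells, and to *Cd55*, which encodes a complement regulator, with 56.7% against 67.0%. *Ier5l*, *Errfi1* and *Mctp2* came next, with differences of −7.4, −6.9 and −5.2 points.

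The groups of genes known from NK cells are counted over all the genes looked for, since a gene can be in the table through its NK listing alone. Of 21 genes of the lytic granule, 12 (57.1%) were listed for NK cells, 11 with the higher share, and their median difference was 21.4 points. *Prf1*, which encodes perforin, had a value above 0 in 91.5% of NK cells and 59.9% of other cells. *Gzmb*, the gene of the caspase-cleaving granzyme B, had 78.1% against 52.7%. *Nkg7*, a granule membrane gene, had a value above 0 in every NK cell to the precision of the table (100%) and in 78.0% of other cells. All 3 thus had high shares outside the cluster as well. The cathepsin genes *Ctsw* (95.5% against 74.7%), *Ctsd* (95.1% against 81.9%) and *Ctsc* (62.1% against 54.4%), the last of which activates granzymes, had smaller differences. The protease inhibitor genes *Serpinb9* (90.6% against 67.7%), whose product protects killer cells from granzyme B, and *Serpinb6b* (91.5% against 67.4%) were close to each other. *Fasl*, the death ligand gene, had 87.1% against 67.5%, and the chymase gene *Cma1* 60.6% against 48.1%. *Gzmk* was the exception, with 42.3% of NK cells against 43.0% of other cells, and *Gzmc* and *Gzmm* were listed for other types only.

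Of 29 killer cell receptor genes looked for, 19 (65.5%) were listed for NK cells, with a median difference of 16.6 points. Another, *Klra1*, was listed for other types only, and the rest were listed for no type. Reads of these BALB/c mice were aligned to mm10, and whether the strain carries all 29 genes was not examined. *Klrd1*, which encodes the CD94 chain shared by the NKG2 receptors, had a value above 0 in 99.1% of NK cells against 74.8% of other cells. Its partners *Klrc1*, encoding the inhibitory NKG2A, and *Klrc2*, encoding the activating NKG2C, had 85.1% against 61.5% and 87.1% against 65.8%. *Klrk1*, the gene of the activating receptor NKG2D, had 95.1% against 70.2%. *Klre1* stood out with 86.6% against 53.6%. In the *Klrb1* family, *Klrb1f* had 81.4% against 53.8%, *Klrb1c*, the gene of NK1.1, 72.6% against 50.0%, *Klrb1a* 67.6% against 53.8% and *Klrb1b* 40.8% against 40.7%. The last of these did not separate NK cells from the rest. The Ly49 receptor genes *Klra3* (69.5% against 56.7%) and *Klra7* (47.1% against 49.2%) were listed with differences of opposite sign. The remaining receptors were *Klri2* (61.7% against 47.7%), *Cd244a* (63.7% against 47.1%), *Fcgr3*, the gene of the IgG receptor CD16 (50.4% against 38.8%), *Cd160* (48.2% against 38.3%), *Cd7* (90.3% against 70.5%) and *Slamf7* (56.4% against 53.2%). The *Klra*, *Klrb1* and *Klrc* genes, the granzymes, *Serpinb9* and *Serpinb9b*, *Ctla2a* and *Ctla2b*, and *Ms4a4b* and *Ms4a4c* have close copies, and how reads of such copies were divided is uncertain.

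Of 10 adapters that pass signals from these receptors, 5 were listed for NK cells, with a median difference of 25.2 points. The medians of these groups cover listed genes only, since the tables give no NK share for the others. *Tyrobp* had a value above 0 in 99.7% of NK cells against 62.3% of other cells, and *Fcer1g*, which encodes the signalling chain of Fc receptors and NKp46, in 99.5% against 62.6%. *Lat2* had 62.1% against 36.9%, the kinase gene *Syk* 56.5% against 41.6%, and *Sh2d1a*, encoding the adapter SAP of the SLAM receptors, 75.1% against 63.9%. *Tyrobp* and *Fcer1g* were thus near 100% inside the cluster, and the other 3 were not.

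**Figure D2:**
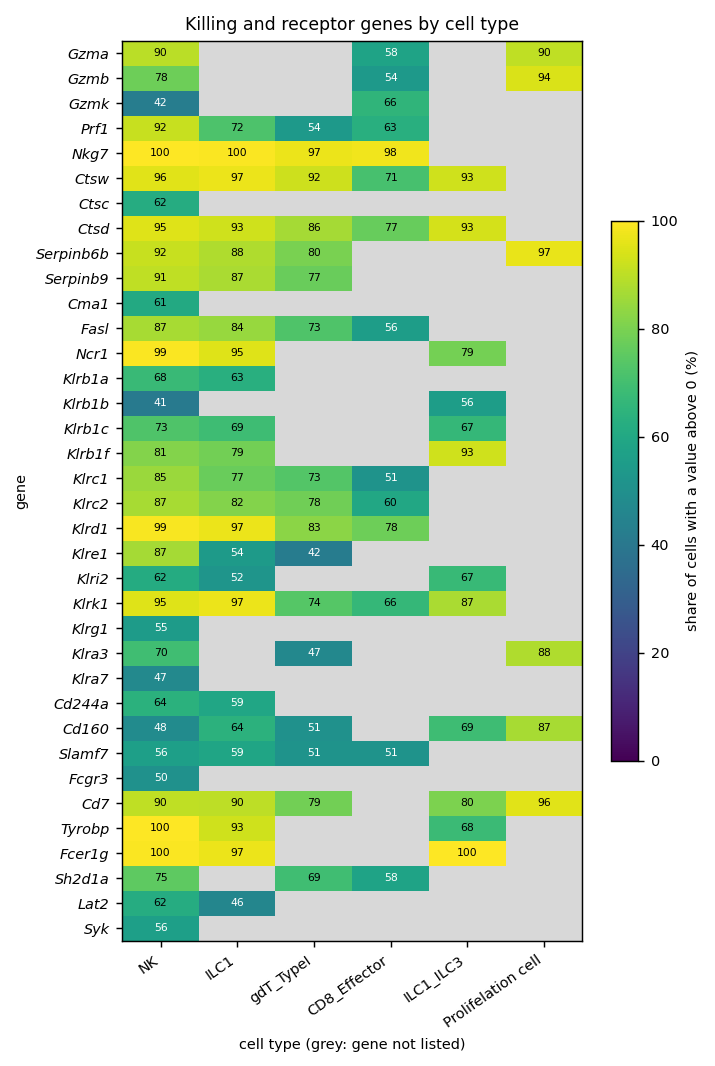
Share of cells with a value above 0 (colour and number in each cell, %) for NK-listed granule, receptor and adapter genes in 6 cell types, where grey marks a gene that was not listed for that type. ILC1s share most receptor rows with NK cells, for example *Ncr1* (99.3% and 95.1%), while *Gzmb* is grey for ILC1s.

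Of 20 transcription factor genes, 8 (40%) were on the NK list, 7 of them with the higher share, and the median difference was 13.1 points. *Irf8*, an interferon regulatory factor gene, had a value above 0 in 91.5% of NK cells and 51.6% of other cells, next after *Gzma* in the size of the difference. *Eomes* followed with a difference of 22.7 points, and *Nfil3*, a gene required for NK cell development, had 71.0% against 55.1%. *Prdm1* (50.3% against 37.2%), *Klf2* (98.0% against 85.0%), *Zeb2* (60.7% against 48.3%), which acts late in NK cell maturation, and *Bhlhe40* (87.4% against 77.5%) had differences between 9.9 and 13.1 points. *Tbx21*, the gene of T-bet, was listed with 51.1% of NK cells against 51.8% of other cells. *Id2*, *Id3*, *Ikzf2*, *Tox*, *Gata3*, *Rora*, *Tcf7* and *Lef1* were among those not on the NK list.

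Of 26 genes of cytokines, chemokines and their receptors, 10 (38.5%) were listed, all with the higher share and with a median difference of 16.2 points. Among receptors, *Il2rb*, the β chain through which IL-2 and IL-15 signal, had a value above 0 in 99.3% of NK cells against 77.4% of other cells. *Il18r1*, a chain of the IL-18 receptor, had 89.5% against 73.6%. The chemokine receptor gene *Ccr2* had 88.1% against 72.5% and *Cxcr4* 92.1% against 86.2%. Among ligands, the chemokine genes *Ccl5*, *Ccl3* and *Ccl4* had 99.6% against 81.2%, 65.0% against 45.0% and 75.4% against 60.4%. *Xcl1*, which attracts dendritic cells, had 78.1% against 61.6%, and *Ifng*, the interferon-γ gene, 63.6% against 58.2%. *Ifng* had the smallest difference of the 10.

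Of 22 adhesion and maturation genes, 8 (36.4%) were listed, all with the higher share, with a median difference of 9.80 points. *Itga2*, which encodes the pan-NK marker CD49b, had a value above 0 in 65.4% of NK cells and 37.8% of other cells, but also in 65.7% of ILC1s and 92.8% of basophils. For *Itgb1* the shares were 91.9% of NK cells and 68.7% of other cells. *Itgax* (49.4% against 37.2%), *Lgals1* (96.8% against 87.7%), *Itgam* and *Cd27* (79.0% against 74.6%) had smaller differences, and *Itga4* had 77.6% against 75.6%. *Cd27* and CD11b mark earlier and later stages of NK cell maturation, and both genes were on the list. *Itga1*, encoding the ILC1 marker CD49a, *Cd69* and *Ly6c2* were not.

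For other programmes, the counts over genes in the table are read against the 11.7% of all its genes that were NK-listed. None of 15 proliferation genes was listed for NK cells. Of 15 interferon response genes, 1 (6.67%) was listed, *Irf7*, with 73.9% against 55.5%. Of 14 genes that respond to tissue dissociation, 3 (21.4%) were listed, namely *Ier2* (97.9% against 93.6%), *Nr4a1* (80.1% against 72.0%) and *Btg2* (98.9% against 94.3%). Of 5 ILC1 markers, 1 (20%) was listed, *Xcl1*. The last 2 shares lay above that of all genes, on lists of few genes.

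Of the 197 genes, 9 (4.57%) were on no other cell type's list, where 634 of all 1679 genes (37.8%) were on 1 list only. *Plxnc1*, encoding a semaphorin receptor, had a value above 0 in 61.4% of NK cells and 34.8% of other cells. *Tnfsf13*, the gene of the cytokine APRIL, had 49.4% against 29.5%, *Prr5l* 45.2% against 28.1% and *Serpinb9b* 54.4% against 43.6%. *Itgax* was the fifth, and *Jdp2* had 43.4% against 42.1%. The other 3 had lower shares in NK cells, with 43.3% against 43.8% for *Phactr3*, 48.2% against 49.2% for *C1ql3*, and the values of *Klra7* given above. The remaining 188 genes were also listed for 1 to 9 other types, with a median over all 197 genes of 4. Among these 188, the NK share was above that of every other listing type for 30 genes, and ILC1s came next for 20 of the 30. The gap was widest for *Cma1*, with 60.6% in NK cells against 12.8% in basophils, although *Cma1* had a value above 0 in 48.9% of the cells outside the basophil cluster. *Klre1*, *Prf1* and *Prdm1* came next, with gaps of 32.1, 19.6 and 16.8 points to the next listing type.

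In the cell type table, most cells with a value above 0 for these genes lay outside the cluster. The parts below rest on that table's shares outside the cluster, which were far above those of the ILC2 table for genes such as *Tyrobp* and *Gzma*, and the intervals do not cover this. NK cells made up 8.02% of all cells with a value above 0 for *Gzma* (7.95% to 8.10%, from rounding and the error of the size), more than for any other member and against their 3.66% of all cells. Proliferating cells held 13.8% of the *Gzma* cells, effector CD8 T cells 0.939%, and the types that did not list *Gzma* the remaining 77.2%. For *Ncr1*, NK cells held 5.69% (5.64% to 5.74%) and ILC1s 7.21%. For *Prf1*, NK cells held 5.48%, ILC1s 5.70% and gdT_TypeI cells 10.3%. For *Eomes*, NK cells held 4.89%, gdT_TypeI cells 11.2%, proliferating cells 8.86% and naive CD8 T cells 1.43%. By size, gdT_TypeI cells were 11.7% of all cells, proliferating cells 6.23%, ILC1s 4.84% and naive CD8 T cells 2.71%. The gdT_TypeI parts of *Prf1* and *Eomes* and the naive CD8 part of *Eomes* thus lay below the sizes of these types. Among the genes that followed were *Qrfp* with 6.36%, *Irf8* with 6.31%, *Plxnc1* with 6.28%, *Itga2* with 6.17%, *Lat2* with 6.01% and *Tnfsf13* with 5.98%. Over the 197 genes the part ran from 2.43% to 8.02%, with a median of 4.24%.

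The overlap with ILC1s was the largest of all types. All lists were made against overlapping sets of other cells, so the overlaps are descriptions, and each is given as a share of both lists. NK cells and ILC1s shared 108 genes, 54.8% of the NK list and 74.5% of the ILC1 list, where 8.64% of all genes were listed for ILC1s. Among the shared genes, the share of cells was higher in NK cells for 60, higher in ILC1s for 47 and equal for 1, with a median difference of 0.55 points. Higher in NK cells were *Klre1* (86.6% against 54.5% of ILC1s), *Irf8* (91.5% against 68.4%) and *Prf1* (91.5% against 71.9%). *Tm6sf1*, *Lat2*, *Gem* and *Plek* were 16.2, 16.1, 14.0 and 11.7 points above ILC1s. Higher in ILC1s were *Hopx* (80.4% against 59.0% of NK cells), *Xcl1* (93.7% against 78.1%), *Cd160* (64.4% against 48.2%) and *Gimap7* (80.6% against 64.8%). Among all cells outside the NK cluster, *Hopx* had 61.2%, above its NK share, and *Gimap7* 59.4%. The perforin gene and the receptor gene *Klre1* were thus on the NK side of the shared genes, and the chemokine gene *Xcl1* on the ILC1 side.

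**Figure D3:**
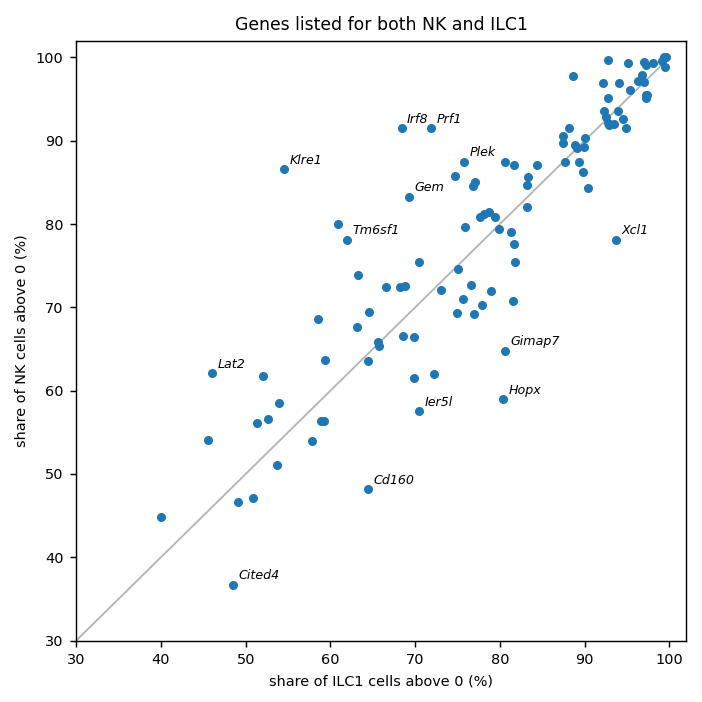
Share of cells with a value above 0 in ILC1s (horizontal axis, %) and in NK cells (vertical axis, %) for the 108 genes listed for both, 1 point per gene, with the diagonal marking equal shares. *Klre1*, *Irf8* and *Prf1* lie farthest above the diagonal, and *Hopx*, *Cd160* and *Xcl1* are among those farthest below it.

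Of the 197 NK genes, 89 (45.2%) were not listed for ILC1s. They held 5 of the 12 NK-listed granule genes (*Gzma*, *Gzmb*, *Gzmk*, *Ctsc* and *Cma1*), 5 of the 19 receptor genes (*Klrg1*, *Klrb1b*, *Klra3*, *Klra7* and *Fcgr3*) and 2 of the 5 adapter genes (*Syk* and *Sh2d1a*). They also held 4 of the 8 transcription factor genes (*Eomes*, *Zeb2*, *Prdm1* and *Klf2*), 5 of the 8 adhesion and maturation genes, among them *Itgam* and *Itgax*, and 2 of the 10 cytokine and chemokine genes. Read against 45.2%, the granule (41.7%), adapter (40%) and transcription factor genes (50%) were near the share of all NK genes, the receptor (26.3%) and cytokine genes (20%) below it and the adhesion genes (62.5%) above it, all on lists of few genes. Of the 37 ILC1 genes not listed for NK cells, *Tnfrsf13c* (55.0% of ILC1s against 30.1% of all other cells) and *Krt83* (70.7% against 46.7%) had the largest differences. *Lgals3*, *Tmem176b*, *Id2*, *Cxcr3*, *Itga1* and *Tnfrsf9* were also among the 37. Granule genes made up 6.09% of the NK list and 5.52% of the ILC1 list, and receptor genes 9.64% and 9.66%, so these groups took similar parts of both lists.

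The gdT_TypeI list shared 86 genes with the NK list, 43.7% of the NK list and 59.3% of its own (8.64% of all genes were listed for gdT_TypeI). NK cells had the higher share for 65 of the 86, with a median difference of 4.65 points. Of the 86, 70 had a share above that of all other cells in both types, and 20 by at least 0.1 as a fraction. At that difference the ILC1_ILC3 list shared more genes, namely 29. *Klre1* (42.0% of gdT_TypeI cells) and *Prf1* (53.9%) were 44.6 and 37.6 points higher in NK cells, and *Eomes* (62.0%) 24.7 points higher. For these genes the gdT_TypeI share lay below that of all cells outside gdT_TypeI, with 56.5%, 62.0% and 65.2%. *Gimap7* was 20.1 points higher in gdT_TypeI cells. The effector CD8 list shared 51 genes, 25.9% of the NK list and 54.3% of its own (5.60% of all genes), with the higher share in NK cells for 46 and a median difference of 15.6 points. Only 17 of the 51 had a share above that of all other cells in both types, and 7 by at least 0.1 as a fraction. *Sytl3*, which acts in vesicle transport, *Klrc1*, *Gzma* and *Fasl* were 41.5, 33.9, 31.5 and 31.4 points higher in NK cells than in effector CD8 T cells. *Gzmk* went the other way, with 65.5% of effector CD8 T cells against 42.3% of NK cells. In all, 139 NK genes were listed for at least 1 of ILC1, gdT_TypeI and effector CD8 T cells, 31 for all 3 and 58 for none.

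The cluster named ILC1_ILC3 shared 59 genes, 29.9% of the NK list and 26.2% of its own (13.4% of all genes), and had the higher share for 40. *Cited4* was 54.6 points lower in NK cells than in ILC1_ILC3 cells, and *Tyrobp* 31.4 points higher. With proliferating cells, 30 genes were shared, 15.2% of the NK list and 5.85% of the list of proliferating cells (30.6% of all genes), and the share was lower in NK cells for all 30. *Cd160* was 38.8 points lower, and *Gzma* 0.8 points lower. The ILC2 list, made from the most numerous cells of the sort, shared 6 genes, 3.05% of the NK list and 4.41% of its own (8.1% of all genes).

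**Figure D4:**
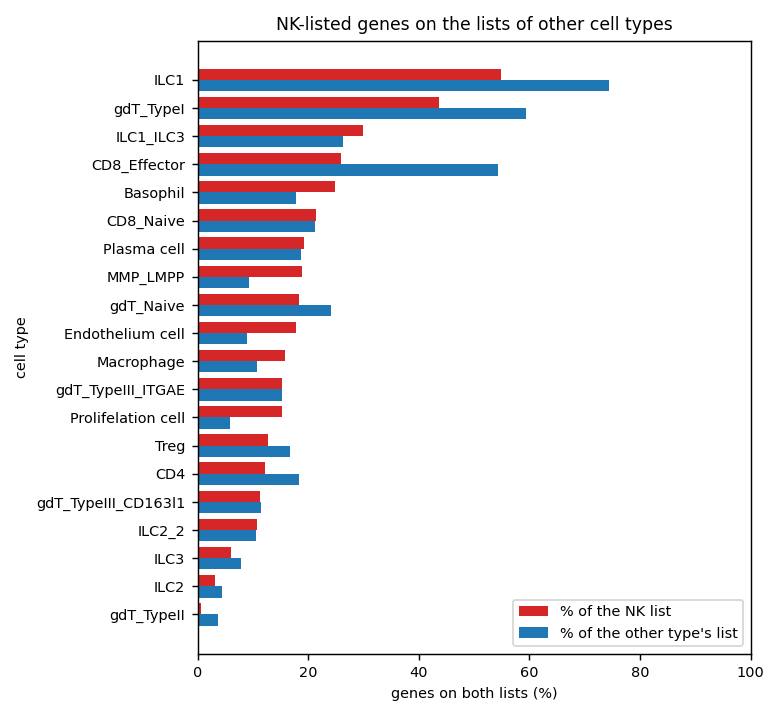
Genes shared between the NK list and the list of each of the 20 other cell types, as a share of the NK list (red) and of the other type's list (blue), on an axis from 0 to 100%. Over all listings, ILC1 and gdT_TypeI lead, with 54.8% and 43.7% of the NK list, and ILC2 has 3.05%. With a difference of at least 0.1 as a fraction, 60 genes were shared with ILC1, 29 with ILC1_ILC3 and 20 with gdT_TypeI.

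The NK-listed genes were then looked up among 10 subclusters of the ILC2s alone, numbered from 0, each compared with all other ILC2s. Of the 197 genes, 105 (53.3%) were listed for at least 1 subcluster, where 48.8% of all 1679 genes were. *Ncr1*, *Prf1*, *Gzmb*, *Eomes* and, other than *Klrg1*, the *Klr* receptor genes were found on none of the 10 lists. Subcluster 1 listed 40 of the 105 genes (38.1%), where it listed 14.0% of all genes found in both tables, and all 40 had the higher share there. These included *Klf2*, with 87.4% of subcluster 1 against 43.5% of other ILC2s, *Anxa2*, with 81.7% against 40.9%, and *Klrg1*, with 92.1% against 63.1%. Subcluster 7 listed 39 (37.1%, where it listed 20.2% of all), among them *Nkg7* (40.0% against 13.0%), *Fcer1g* (32.0% against 5.20%) and *Tyrobp* (26.5% against 3.20%). These 3 genes were thus above 0 in a minority of subcluster 7, which held 1.42% of ILC2s.

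Subcluster 4 listed 31 (29.5%), a smaller part than the 55.0% it listed of all genes in both tables. *Gzma* was among them, with 25.8% of subcluster 4 against 9.70% of other ILC2s, and so was *Il2rb*, with 75.9% against 35.2%. Subcluster 5 listed 36 (34.3%, where it listed 14.9% of all), but only 11 of these had the higher share there. Subcluster 8 listed 30 (28.6%, where it listed 13.8% of all), *Irf7* with 33.7% against 12.1%, and subcluster 3 listed 22 (20.95%, where it listed 14.9% of all). Subclusters 0 (7 genes), 2 (7), 6 (9) and 9 (6) listed few of the 105, which is 6.67%, 6.67%, 8.57% and 5.71%, where they listed 10.7%, 7.2%, 9.15% and 8.05% of all.

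**Figure D5:**
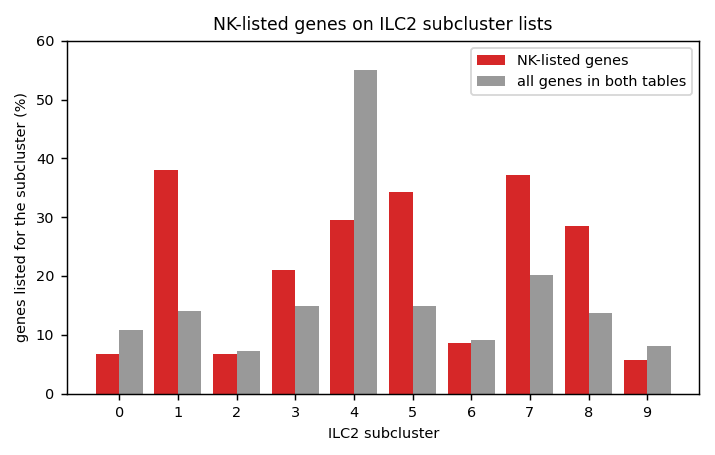
Share of genes listed for each of 10 ILC2 subclusters (vertical axis, %), among the 105 NK-listed genes found in both tables (red) and among all 820 genes found in both tables (grey). Subclusters 1, 5, 7 and 8 have the taller red bar by the widest margin, and subcluster 4 the taller grey bar, with 29.5% against 55.0%.

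Of the 19 NK-listed receptor genes, 12 lie in 1 stretch of the genome. Positions were taken from RefSeq for GRCm38.p6, the assembly also called mm10, where all 197 genes were found. Chromosome 6 carried 23 of the 197, and 21.7% of the 106 table genes on it were NK-listed, against 11.7% of the whole table. These 12 lie in the NK gene complex, at chr6:128609227-130337626, a window that runs from the first to the last NK-listed gene and so has its ends set by them. It held 16 table genes. In order along the chromosome the 12 were *Klrb1a*, *Klrb1c*, *Klrb1b*, *Klrb1f*, *Klre1*, *Klrd1*, *Klrk1*, *Klrc2*, *Klrc1*, *Klri2*, *Klra7* and *Klra3*, and the other 4 were *Cd69*, *Clec12a*, *Clec2i* and *Gabarapl1*. At chr1:170960558-171705258, 6 of 7 table genes were NK-listed, the Fc receptor genes *Fcgr2b*, *Fcgr3* and *Fcer1g* and the SLAM family genes *Cd244a*, *Slamf7* and *Cd48*. The serpin genes *Serpinb6b*, *Serpinb9* and *Serpinb9b* filled chr13:32956811-33040588, with no other table gene between them, and *Gzma* and *Gzmk* lay with *Snx18* at chr13:113093824-113618564, where *Esm1* was the fourth table gene. *Ccl5*, *Ccl3* and *Ccl4* lay at chr11:83525778-83664683, with the table genes *Ccl6* and *Ccl9*, which were not NK-listed.

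Promoters were read for motifs of 3 families of transcription factors that act in NK cells, since the T-box factors *Eomes* and *Tbx21* were themselves listed. The 250 bases before the start site were searched on both strands, each motif on its own, for TCACACC (T-box), TGTGGT (Runx) and GGAAGT (Ets), in the 156 NK-listed genes with a RefSeq promoter. TCACACC was found before 15 of the 156 genes (9.62%), against 3.27% of the 1161 other table genes and 3.84% of all 27025 genes with a promoter. The 15 were *Cd160*, *Cd48*, *Ctsc*, *Gzmk*, *Itga4*, *Jdp2*, *Mctp2*, *Nkg7*, *Pglyrp1*, *Samd3*, *Sgk1*, *Sidt1*, *Stard10*, *Txndc5* and *Xcl1*. TGTGGT was found before 34 genes (21.8%), against 12.7% of other table genes and 15.9% of all genes. The 34 included *Gzma*, *Gzmb*, *Prf1*, *Ncr1*, *Nkg7*, *Xcl1*, *Klre1*, *Klrk1*, *Klrc1*, *Klrc2*, *Klrb1a* and *Klrb1c*. Also among them were *Add3*, *Ccl3*, *Cd160*, *Cd48*, *Clnk*, *Dhrs3*, *Gimap4*, *Gimap7*, *Itga4*, *Jpt1* and *Lck*. The rest were *Ms4a4c*, *Pde2a*, *Prr5l*, *Qrfp*, *Runx2*, *Sgk1*, *St8sia4*, *Sytl3*, *Tnfsf13*, *Txk* and *Zbtb20*. Genes with close copies, such as *Klrc1* and *Klrc2*, were counted separately. GGAAGT was found before 36 genes (23.1%), against 27.0% and 22.2%. These are matches of letters, and no binding was measured.

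Promoters of 4 genes are shown because *Gzma* and *Ncr1* had 2 of the 5 largest differences in share and because *Nkg7* and *Xcl1* are 2 of the 6 NK-listed genes that held both a T-box and a Runx match (the others are *Cd160*, *Cd48*, *Itga4* and *Sgk1*). They lie at chr13:113100982-113101231 on the minus strand for *Gzma*, chr7:4337465-4337714 on the plus strand for *Ncr1*, chr7:43436888-43437137 on the plus strand for *Nkg7* and chr1:164935523-164935772 on the minus strand for *Xcl1*, all GRCm38.p6. Each is written 5′ to 3′ in the direction of its gene and ends at the base before the start site. Capitals mark matches of the 3 motifs; a match on the opposite strand appears as the reverse complement.
Gzma promoter: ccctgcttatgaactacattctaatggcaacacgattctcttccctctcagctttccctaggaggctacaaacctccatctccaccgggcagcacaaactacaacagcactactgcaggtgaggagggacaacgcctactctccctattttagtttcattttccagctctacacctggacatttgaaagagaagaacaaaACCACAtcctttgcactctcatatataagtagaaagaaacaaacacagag
Ncr1 promoter: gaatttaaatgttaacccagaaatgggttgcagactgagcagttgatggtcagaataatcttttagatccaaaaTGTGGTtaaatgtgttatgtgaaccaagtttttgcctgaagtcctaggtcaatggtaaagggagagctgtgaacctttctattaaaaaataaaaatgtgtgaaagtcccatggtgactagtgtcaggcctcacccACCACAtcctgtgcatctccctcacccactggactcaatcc
Nkg7 promoter: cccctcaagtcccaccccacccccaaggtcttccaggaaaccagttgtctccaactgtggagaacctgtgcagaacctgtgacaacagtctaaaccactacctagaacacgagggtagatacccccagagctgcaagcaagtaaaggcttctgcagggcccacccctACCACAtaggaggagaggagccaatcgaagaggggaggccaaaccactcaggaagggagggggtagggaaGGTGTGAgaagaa
Xcl1 promoter: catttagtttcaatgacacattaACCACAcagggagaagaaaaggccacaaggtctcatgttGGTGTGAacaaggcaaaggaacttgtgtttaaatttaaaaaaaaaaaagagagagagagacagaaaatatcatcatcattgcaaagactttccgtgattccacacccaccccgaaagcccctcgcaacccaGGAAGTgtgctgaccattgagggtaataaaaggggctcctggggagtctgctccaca
The *Gzma* promoter held 1 Runx match, starting 50 bases before the start site, and no T-box match. The *Ncr1* promoter, the first of its 2 RefSeq start sites, held Runx matches starting 176 and 41 bases before the start. The *Nkg7* promoter held a T-box match starting 13 bases and a Runx match starting 83 bases before the start, and the *Xcl1* promoter held 1 match of each motif, starting 188 (T-box), 227 (Runx) and 57 (Ets) bases before the start.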

How the data were processed

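Cells of 4 libraries, 1 per group, were aligned to mm10 and counted by the authors with Cell Ranger, cells with fewer than 500 genes were removed, and the merged cells were clustered in Seurat. The deposited tables give, for each gene listed as higher in a cluster, the fraction of cells with a value above 0 in that cluster and outside it, rounded to 3 decimals, printed here as percent. The assay behind these fractions was not stated. Their further columns hold the authors' fold changes and p-values, which were not used. No column holds values of a single library (0 columns of that kind were left out), and the tables give neither depth nor cell numbers. Cells are not replicates and each group is 1 library, so no test was made. Per the study's methods, flow cytometry served to remove dead cells and doublets. No computational doublet caller was described for the sorted cells, and none could be run on tables without cells.

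A gene was a member if listed for the cluster named NK. Cluster sizes were solved by least squares over 1045 genes listed for more than 1 cluster, since the share in other cells plus the size times the difference of both shares is the same for every cluster. The residual was 0.000233 (root mean square, as a fraction), the 21 sizes summed to 100.1%, and on simulated data with known sizes over 1679 genes the largest error was 0.0194 percentage points. The part of positive cells held by NK cells is the size times the share, divided by the share in all cells. A share in types not listing a gene was what remained after the listing types.

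Named genes were the NK-listed genes of 16 lists of known markers (13 genes were in more than 1 list), the 20 genes with the largest difference and the 20 of which NK cells held the largest part, the 5 lowest differences and genes on no other list. Genes named for gaps between cell types, in ILC2 subclusters, by position or by motif were chosen after their values were seen. The values of a few genes that the rule named are not reported here. The members and lists were chosen with earlier results of these data known. Alternatives were listings with higher shares only, a difference of at least 0.1, and other fits of the sizes. Sequences are from RefSeq (GRCm38.p6). Neighbouring genes formed a run if at most 1.0 Mb apart. Analyses used Python 3.11.15, pandas 2.3.3, numpy 2.4.6 and scipy 1.17.1.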

Additional observations from a re-analysis of the deposited data

How the results depend on the processing

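No paired analysis was possible because the tables pool all 4 libraries and no group had a second one. Of 28 alternatives, 20 kept counts within 1.5 times of those reported or values within their error. When only listings with a higher share inside the cluster were counted, the genes shared with effector CD8 T cells fell from 51 to 17. When a difference of at least 0.1 was required, 105 of the 197 NK genes were left. The shared genes then numbered 60 with ILC1, 29 with ILC1_ILC3, 7 with effector CD8 T cells, 20 with gdT_TypeI and 12 with proliferating cells, and 45 were listed for an ILC2 subcluster. By construction both settings leave fewer listings. ILC1 stayed the type with the most shared genes of these 5. With a difference of at least 0.1, gdT_TypeI fell below ILC1_ILC3. The cluster size was 3.66% under every fit, and the part of *Gzma* cells in NK cells was 8.02% to 8.03%. Counting only higher shares for the genes on no other list (10) and for ILC2 subclusters (96) was chosen after seeing the data. The limits are that the assay behind the shares was not stated, that a gene not listed may have been lower, unchanged or untested, and that treatment and organ cannot be told apart within the cluster.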
